A study of Homo sapiens with 6 samples.

Results

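RNA of HCT116SCs was sequenced after transfection with a negative control (NC) siRNA or with siRNA against PSCA (siPSCA), and the genes described here are 43 genes of the endoplasmic reticulum (ER) among the 58735 genes of the deposited table. They comprise the ER chaperones, the J-domain proteins, the disulfide isomerases, the sensors of the unfolded protein response and the machinery of ER-associated degradation. They were chosen by gene name, from a list of 44 names in which VIMP is an older symbol of SELENOS, and the list was drawn up on siPSCA minus NC values of the same 6 libraries. Their values in that comparison are therefore a description, and no count over them is read as support.

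HCT116SCs are cells of the human colorectal cancer line HCT116 that were sorted for CD44 and CD326 (CD44+CD326+) and grown as tumor spheres in serum-free DMEM/F12 with B27, EGF at 20 ng/mL and bFGF at 20 ng/mL. The NC group had 3 libraries of genotype WT, transfected with NC siRNA, and the siPSCA group had 3 libraries of genotype PSCA knockdown, transfected with PSCA siRNA. Both groups received the same liposomal reagent and were harvested after 48 h. All cells came from 1 cell line, the siPSCA sequence used for sequencing was not named, and nothing states that the libraries came from separate cultures, so the p-values measure only the spread between these libraries, which may be technical. The titles of siPSCA 2 and siPSCA 3 read HCT117 and HCT118, whereas their other labels name HCT116.

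Secreted and membrane proteins fold in the ER, where chaperones of the HSP70 and HSP90 families, lectin chaperones and disulfide isomerases assist them. When unfolded proteins accumulate, the sensors ATF6, IRE1 (encoded by ERN1) and PERK (encoded by EIF2AK3) start the unfolded protein response. Cleaved ATF6 and spliced XBP1 then raise transcription of chaperone and degradation genes, and PERK slows translation while favouring that of ATF4. Proteins that cannot be folded are moved back to the cytosol and degraded by the proteasome, and the ER-associated degradation genes encode the proteins that recognise them, trim their glycans, ubiquitinate and export them.

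ATF6 binds with NF-Y to the ER stress element, in which CCAAT and CCACG are separated by 9 bases, and to the shorter ER stress element II, in which ATTGG and CCACG are separated by 1 base. Both were searched on both strands of the RefSeq promoter windows (GRCh38.p14, 250 bases before to 50 bases after a start site), which held 40 of the 43 genes in 47 windows. Only exact matches were counted, so variants of an element were not sought. The ER stress element was found for 8 of the 40 genes, for 25 of all 27305 gene symbols and in 0.0769% of all 35116 windows. The ER stress element II was found for 3 of the 40 genes, for 19 of all 27305 gene symbols and in 0.0541% of all windows. The stretches below are shown because the genes with the largest falls, HSP90B1, HERPUD1 and HSPA5, were among those with an element. All run 5′ to 3′ on the strand of the gene, end before the start site of the window they were read from and carry the element in capitals. A match describes the letters of these windows and not a site in use.
HSPA5, chr9:125241344-125241493, minus strand, positions -150 to -1 from the start site: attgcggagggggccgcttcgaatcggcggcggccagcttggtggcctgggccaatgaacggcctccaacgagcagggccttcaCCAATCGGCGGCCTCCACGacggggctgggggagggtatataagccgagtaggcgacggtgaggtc
HSP90B1, chr12:103930204-103930246, plus strand, positions -206 to -164: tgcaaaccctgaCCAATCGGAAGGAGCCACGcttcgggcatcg
HSP90B1, chr12:103930309-103930351, plus strand, positions -101 to -59, element in the reverse orientation: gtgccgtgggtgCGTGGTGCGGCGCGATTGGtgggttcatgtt
PDIA6, chr2:10812841-10812883, minus strand, positions -98 to -56: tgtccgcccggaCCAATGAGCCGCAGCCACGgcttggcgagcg
XBP1, chr22:28800591-28800633, minus strand, positions -64 to -22: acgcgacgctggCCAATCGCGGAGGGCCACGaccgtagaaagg
CALR, chr19:12938372-12938414, plus strand, positions -237 to -195, reverse orientation: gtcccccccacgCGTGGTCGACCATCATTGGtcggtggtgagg
HERPUD1 (ER stress element II), chr16:56932013-56932047, plus strand, positions -129 to -95: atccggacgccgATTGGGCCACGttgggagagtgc
HYOU1 (ER stress element II), chr11:119057262-119057296, minus strand, positions -91 to -57, reverse orientation: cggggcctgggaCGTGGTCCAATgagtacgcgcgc
SDF2L1 (ER stress element II), chr22:21642102-21642136, plus strand, positions -200 to -166, reverse orientation: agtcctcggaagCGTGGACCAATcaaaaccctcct
HYOU1 held another copy of the ER stress element II at positions -185 to -175, and CRELD2, ERO1B and CANX also held the ER stress element. CANX had 3 windows with different start sites, in which the element lay at -189 to -171, -151 to -133 and -9 to 9, so in the last of these it spans the start site. The core of the UPR element, TGACGTGG, occurred for DNAJC10, TXNDC5, TXNDC11 and HYOU1. In HYOU1 it shared 5 bases with the upstream ER stress element II. This core occurred for 253 of all 27305 gene symbols and in 0.729% of all windows.

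Levels are given as FPKM, fragments scaled to gene length and to the depth of the library, so that levels of different genes can be compared per length. A difference is the log2 fold change of FPKM + 1, siPSCA minus NC, with its standard error (SE) from limma, which understates the change of low genes. Genes needed a mean of at least 1 FPKM, which left 13796 genes, and a gene is said to rise or fall where its p-value adjusted over all of these was under 0.05. Of the set, 42 genes were tested. DERL3 was the exception, with reads of 0, 0 and 0 in NC and 1, 0 and 1 in siPSCA, at or under the floor of 3 reads per library (0.0434 to 0.0470 FPKM).

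The libraries held 16099716 to 17302219 reads on genes. PSCA, the targeted gene, had 4, 12 and 15 reads in NC 1 to 3 and 9, 9 and 7 reads in siPSCA 1 to 3, with NC 1 the lowest of the 6 libraries. A knockdown of PSCA RNA was thus not detectable at this depth (limma adjusted p = 0.728 in the fit over all 34391 genes with a read), and the group names are those of the labels. For protein, the paper reports lower PSCA on Western blots of HCT116SCs with every PSCA siRNA it tried, which is a measure apart from the RNA of these libraries. Genes of higher GC content had higher log2 fold changes (Spearman correlation 0.66 over all genes and 0.56 over the 42 genes of the set). Genes are not independent replicates, and this is a description. After a trend on GC content and gene length was removed, the correlation across the 42 genes was 0.11. Values after that removal are given with the results below, and whether the trend is technical was not tested. NC 3 stood apart from NC 1 and NC 2 and was the highest NC library for 25 genes of the set and the lowest for 15. Among cell markers, CD44 was at 81.1, 79.2 and 87.5 FPKM in NC and 59.6, 60.1 and 62.4 FPKM in siPSCA (log2 fold change -0.44, limma adjusted p = 0.00193, and -0.30 after trend removal). EPCAM, which encodes CD326, was at 94.7 to 123 FPKM in NC and 93.3 to 97.3 FPKM in siPSCA and did not pass the threshold. Of the other colorectal and epithelial markers, CDH1 fell (-0.60, adjusted p = 0.00134, and -0.62 after trend removal). CDX2 rose (0.70, adjusted p = 0.00387, and 0.41 after trend removal), as did KRT19 (0.25, adjusted p = 0.00589) and KRT8 (0.22, adjusted p = 0.00848), which were -0.25 and -0.05 after trend removal and did not pass. KRT18 was -0.14 and did not pass. VIL1 was nearly absent, with 1, 2 and 0 reads in NC and 3, 5 and 1 reads in siPSCA, and was not tested. Their part in the results below was not tested. Markers of other cell types summed to 4.33 to 7.43 FPKM per library, mostly COL1A1, with CD3E and CD68 at 0 throughout. In bulk RNA, fewer cells of a type and less RNA per cell cannot be told apart.

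The ER genes had been picked on this comparison, and as a description their summed level was lower in siPSCA. Their FPKM values summed to 2597, 2682 and 3056 in NC and to 1497, 1472 and 1500 in siPSCA, so the groups did not overlap. HSPA5 and HSP90B1 together held 43.0% to 45.8% of that sum in NC and 25.6% to 26.5% in siPSCA. Without both genes the sums were 1480, 1526 and 1657 in NC and 1114, 1092 and 1102 in siPSCA, which did not overlap either.

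**Figure D1:**
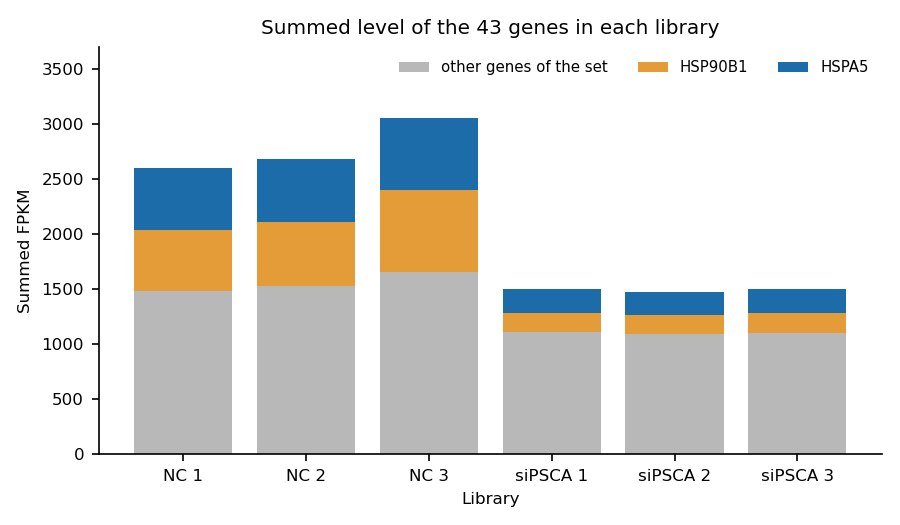
Summed FPKM of the 43 genes in each of the 6 libraries, split into HSPA5, HSP90B1 and the other 41 genes. The NC bars reach 2597 to 3056 FPKM and the siPSCA bars 1472 to 1500 FPKM, and all 3 segments are shorter in siPSCA.

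Of the 42 genes tested, 28 fell, 6 rose and 8 did not pass the threshold, with limma adjusted p-values of 6.24e-05 to 0.0435 among the 34 that passed. Of all genes tested, 24.2% fell and 26.6% rose. The median log2 fold change of the set was -0.40, against 0.01 over all genes. After removal of the GC and length trend, 27 genes fell and 4 rose, where 18.4% of all genes fell and 21.7% rose, and the median of the set was -0.39. Without NC 3, 29 genes fell and 5 rose. Without siPSCA 1, and likewise without siPSCA 2, the number that rose was 3. With no FPKM minimum, 26 fell and 3 rose, and CALR, DERL1, SDF2L1, SIL1 and TXNDC5 did not pass. All siPSCA libraries lay below all NC libraries for 29 genes (30.8% of all genes tested) and above them for 7 genes (33.7% of all genes tested). The members had been picked on this comparison, so nothing is read from these counts. Falls of 20 genes and rises of 2 genes, ATF6B and ERP29, passed in all 13 alternative analyses. The share of all genes that did so was not computed, so nothing is read from this count either.

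**Figure D2:**
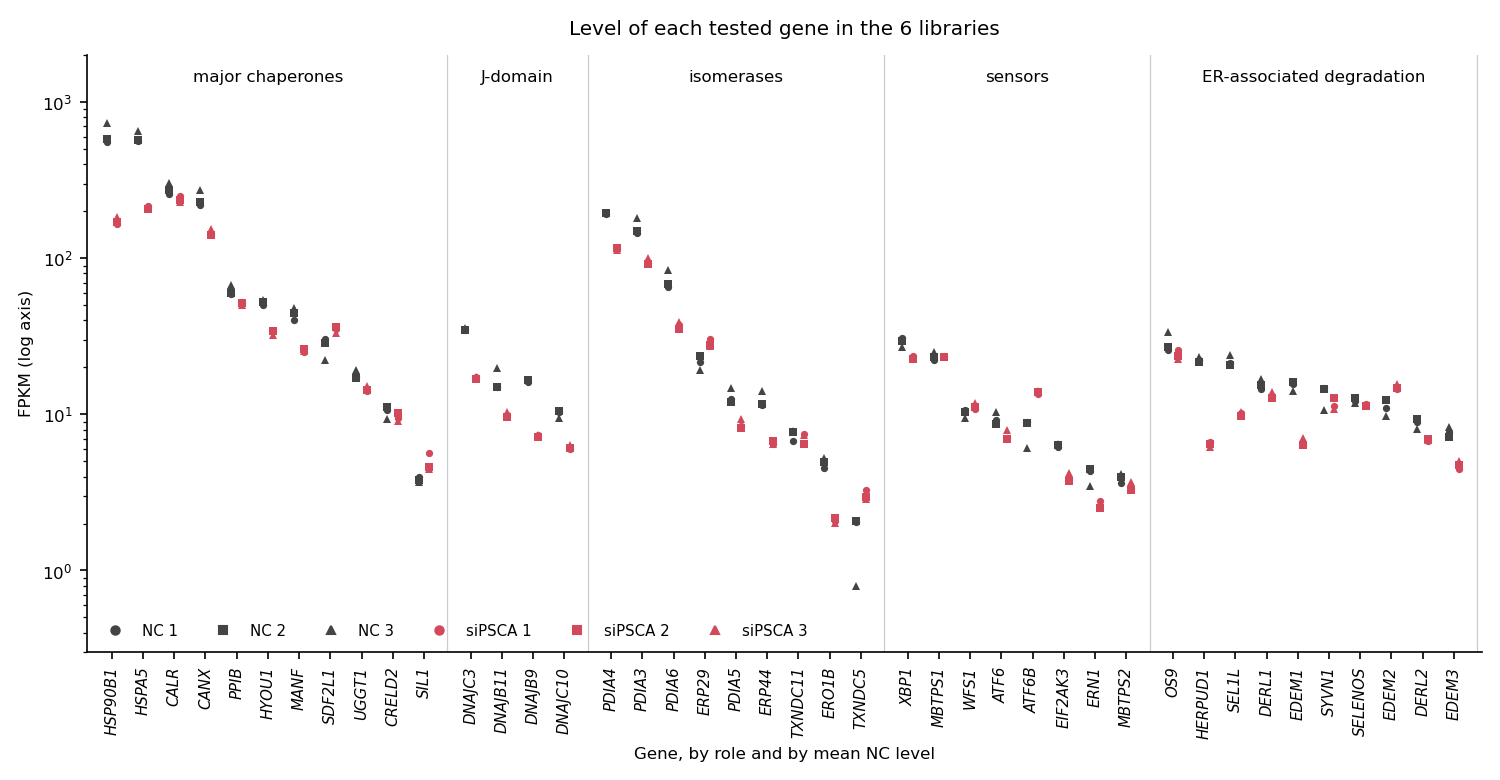
FPKM on a log axis for the 42 tested genes, grouped by role and ordered by mean NC level. Each point is 1 library (NC grey, siPSCA red, marker shape for the library number). HSP90B1 and HSPA5 have the highest NC levels, and the NC and siPSCA points of HERPUD1 are separated by a wide gap.

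Of the 11 major chaperones, 8 fell, 2 rose and CRELD2 did not pass, and after trend removal 9 fell and none rose. Over all genes tested 24.2% fell and 26.6% rose, and after trend removal 18.4% fell and 21.7% rose. As the genes were picked on this comparison, nothing is read from this count or from the counts of the other roles below. The 2 most abundant per length, HSP90B1 and HSPA5, had the largest falls. HSP90B1 encodes GRP94, the HSP90 of the ER, on chromosome 12 (12:103930107-103953645 in GRCh38, plus strand). Its level was 554, 585 and 740 FPKM in NC and 167, 172 and 184 FPKM in siPSCA. NC 3 was the highest library and the groups were far apart, with NC 3.60-fold higher and a log2 fold change of -1.83 ± 0.11 (SE). HSPA5 encodes BiP, the HSP70 that also keeps the sensors inactive. Its level was 562, 571 and 658 FPKM in NC and 216, 209 and 214 FPKM in siPSCA, a log2 fold change of -1.48 ± 0.07 (SE). After trend removal the differences of HSP90B1 and HSPA5 were -1.60 and -1.43. The 2 genes were 18 and 54 in the order of largest falls among all genes tested.

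Other chaperones fell by less. MANF, a secreted cofactor of BiP, was at 40.5, 44.8 and 48.3 FPKM in NC and 25.3, 26.3 and 25.5 FPKM in siPSCA (log2 fold change -0.77 ± 0.07, SE). CANX, the membrane lectin chaperone calnexin, was at 221, 231 and 273 FPKM in NC and 144, 141 and 154 FPKM in siPSCA (-0.72 ± 0.09). HYOU1, a large HSP70-like protein that acts as a nucleotide exchange factor of BiP, was at 50.5, 52.5 and 54.3 FPKM in NC and 34.1, 34.3 and 32.2 FPKM in siPSCA (-0.63 ± 0.05). In each of these genes every siPSCA library was below every NC library. The differences after trend removal were -0.87 for MANF, -0.49 for CANX and -0.84 for HYOU1.

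CALR, the soluble partner of calnexin, was at 259, 274 and 303 FPKM in NC and 250, 237 and 228 FPKM in siPSCA. Its fall of -0.22 ± 0.07 (log2, SE) was small beside the -0.72 of CANX, although its level was near that of CANX. It passed the threshold with all libraries but not without NC 2 (-0.23), siPSCA 1 (-0.26), siPSCA 2 (-0.22) or siPSCA 3 (-0.19). UGGT1, which reglucosylates misfolded glycoproteins so that they bind these lectins again, fell by 0.29 on the log2 scale, and PPIB, the ER cyclophilin, by 0.26. UGGT1 did not pass without siPSCA 1 (-0.27) or siPSCA 2 (-0.27) or after trend removal (-0.11), and PPIB did not pass without siPSCA 2 (-0.26) or siPSCA 3 (-0.25).

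SDF2L1, a cofactor of DNAJB11, and SIL1, the other nucleotide exchange factor of BiP, went the other way in the FPKM values. SDF2L1 was at 30.3, 28.6 and 22.3 FPKM in NC and 35.1, 36.4 and 33.3 FPKM in siPSCA, with NC 3 the lowest library (log2 fold change 0.37 ± 0.11, SE). With a GC content of 65.5%, it was lower in siPSCA after trend removal, at -0.28, so its direction depends on that step. It was 0.24 without NC 3 and did not pass without NC 2 (0.41), siPSCA 1 (0.36), siPSCA 2 (0.34) or siPSCA 3 (0.40). SIL1 was at 3.99, 3.78 and 3.68 FPKM in NC and 5.66, 4.63 and 4.49 FPKM in siPSCA (0.29 ± 0.09), with siPSCA 1 the highest library. It was -0.08 after trend removal, and of the 6 analyses without 1 library it passed only without siPSCA 3. It was 0.32 without NC 1, 0.29 without NC 2, 0.27 without NC 3, 0.21 without siPSCA 1 and 0.33 without siPSCA 2. CRELD2, a BiP-associated isomerase-like protein, was at 10.6, 11.1 and 9.31 FPKM in NC and 9.56, 10.3 and 9.13 FPKM in siPSCA, and its groups overlapped (-0.09 ± 0.08, not past the threshold, and -0.31 and past it after trend removal).

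The 4 ER J-domain proteins, which deliver clients to BiP and drive its ATPase, all fell, where 24.2% of all genes tested fell. DNAJB9 (ERdj4), which also returns IRE1 to its inactive form, was at 16.2, 16.7 and 16.7 FPKM in NC and 7.33, 7.22 and 7.39 FPKM in siPSCA (-1.07 ± 0.05, SE). DNAJC3 (p58IPK) was at 34.8, 34.7 and 36.0 FPKM in NC and 17.3, 16.7 and 17.4 FPKM in siPSCA (-0.99 ± 0.04). In both genes the libraries of a group lay close together and the groups far apart. DNAJB11 (ERdj3) was at 15.0, 15.0 and 19.8 FPKM in NC, with NC 3 highest, and 9.89, 9.60 and 10.4 FPKM in siPSCA (-0.67 ± 0.11). DNAJC10 (ERdj5), a disulfide reductase, was at 10.3, 10.6 and 9.49 FPKM in NC and 6.03, 6.13 and 6.42 FPKM in siPSCA (-0.63 ± 0.06). After trend removal DNAJC10 was -0.10 and did not pass, while DNAJB9 was -0.81, DNAJC3 -0.73 and DNAJB11 -0.37.

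Of the 9 disulfide isomerases and oxidases, 6 fell, 2 rose and TXNDC11 did not pass, where 24.2% of all genes fell and 26.6% rose. PDIA6 was at 65.4, 68.1 and 83.9 FPKM in NC and 37.5, 35.1 and 38.8 FPKM in siPSCA (-0.94 ± 0.10, SE). ERO1B, the oxidase that supplies disulfides to the isomerases, was at 4.53, 4.98 and 5.28 FPKM in NC and 2.08, 2.17 and 2.03 FPKM in siPSCA (-0.94 ± 0.07). Both genes held the ER stress element. PDIA4, the most abundant per length of the 9 in NC, was at 192, 194 and 194 FPKM in NC and 114, 117 and 112 FPKM in siPSCA (-0.75 ± 0.04). PDIA3, which works with the lectin chaperones, was at 145, 149 and 181 FPKM in NC and 92.9, 92.6 and 99.9 FPKM in siPSCA (-0.72 ± 0.09). The groups of all 4 genes were separate, and NC 3 was the highest library for PDIA6, ERO1B and PDIA3. ERP44, which retains client proteins in the early secretory pathway, fell by 0.82 and PDIA5 by 0.54 on the log2 scale. These 6 genes ranged from -0.91 to -0.54 after trend removal.

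ERP29, a chaperone of the isomerase family without a redox-active site, rose from 21.6, 23.6 and 19.2 FPKM in NC to 30.6, 27.9 and 27.4 FPKM in siPSCA (0.40 ± 0.09, SE, and 0.35 after trend removal). TXNDC5 was at 2.03, 2.07 and 0.794 FPKM in NC and 3.29, 2.96 and 2.88 FPKM in siPSCA, and NC 3 lay far below the other libraries. Its difference was 0.66 ± 0.22 with all libraries and 0.40 without NC 3, and it did not pass without siPSCA 1 (0.62), siPSCA 2 (0.67) or siPSCA 3 (0.69) or after trend removal (0.55). It did not pass with a pseudocount of 0.1 (0.97) or on TPM (0.84) either. Of its exonic bases, 60.6% are shared with the read-through gene BLOC1S5-TXNDC5 on the same strand, so its counts are uncertain. TXNDC11 was at 6.78 to 7.79 FPKM in NC and 6.44 to 7.48 FPKM in siPSCA (-0.06 ± 0.08). For PDIA3, a pseudogene of near-identical sequence, PDIA3P1, was listed at 8.30, 8.42 and 9.89 FPKM in NC and 4.99, 5.29 and 5.97 FPKM in siPSCA, and reads of the 2 genes may have been split. Exons on the opposite strand covered 27.2% of PPIB (SNX22), 25.2% of PDIA6 (ATP6V1C2), 17.5% of ERP29 (AC073575.2), 14.8% of PDIA3 (ELL3), 14.4% of EIF2AK3 (AC104134.1) and 13.5% of OS9 (AC025165.2). Exons on the same strand covered 12.2% of MBTPS2 (YY2) and 12.2% of PDIA5 (SEC22A), and the strand setting of the counting is not given in the sources used here.

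**Figure D3:**
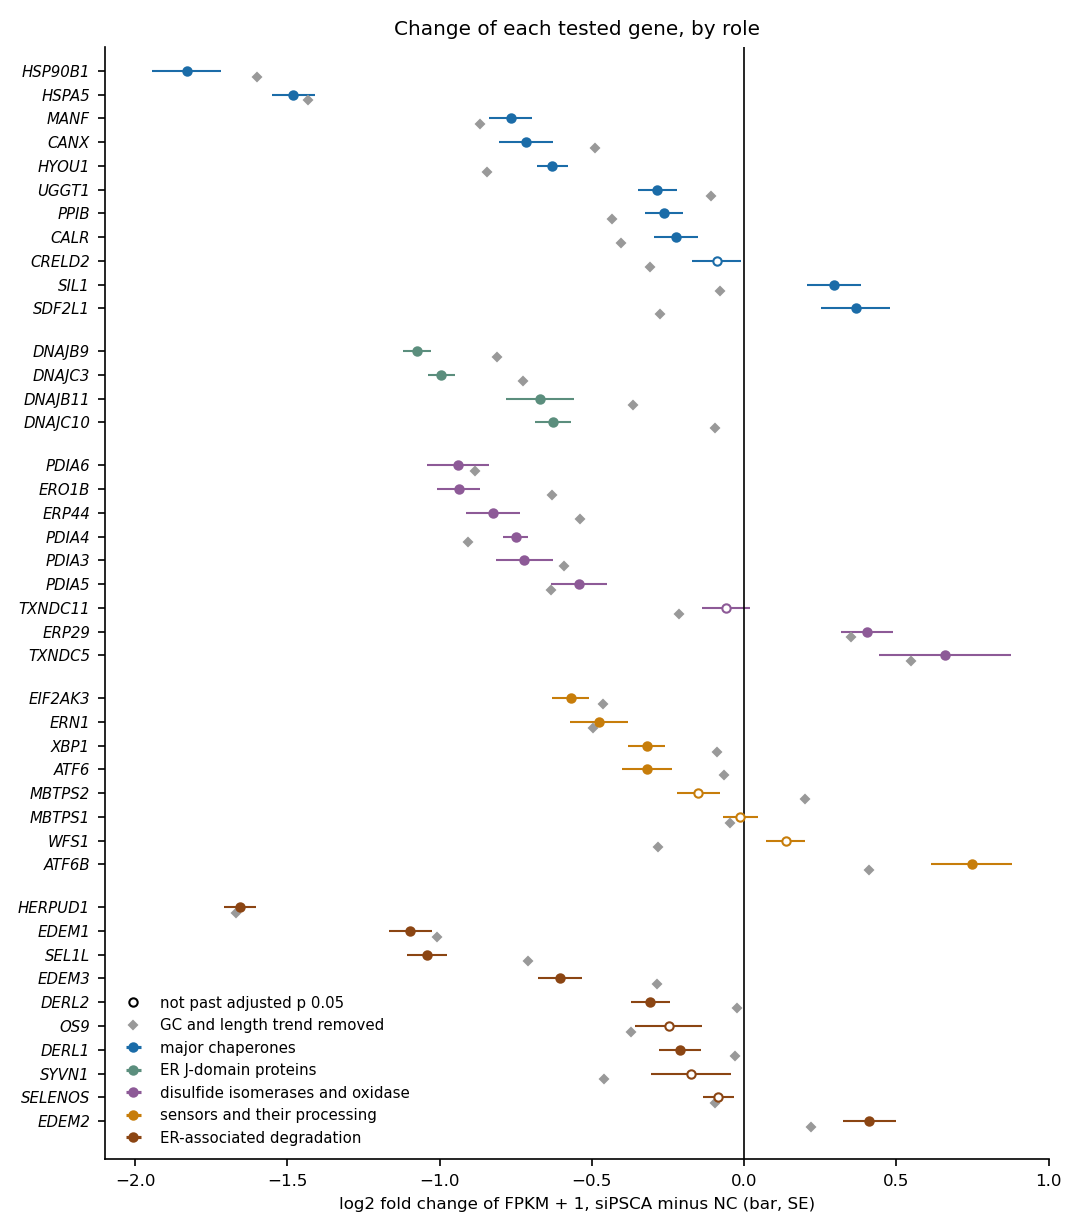
The log2 fold change of FPKM + 1 (siPSCA minus NC) of the 42 tested genes by role, with bars for the SE, open circles for genes not past the threshold and grey diamonds for the value after removal of the GC and length trend. HSP90B1, HERPUD1 and HSPA5 lie farthest to the left, and SDF2L1, SIL1, WFS1 and MBTPS2 change side after trend removal.

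Of the 8 sensors and their processing genes, 4 fell, ATF6B rose and 3 did not pass, where 24.2% of all genes fell and 26.6% rose. EIF2AK3 (PERK) was at 6.22, 6.37 and 6.43 FPKM in NC and 3.86, 3.75 and 4.24 FPKM in siPSCA (-0.57 ± 0.06, SE). ERN1 (IRE1) was at 4.35, 4.45 and 3.46 FPKM in NC and 2.79, 2.53 and 2.61 FPKM in siPSCA (-0.48 ± 0.10). Both kept separate groups and were -0.46 and -0.50 after trend removal. XBP1, whose mRNA is spliced by IRE1, was at 30.9, 29.5 and 27.2 FPKM in NC and 23.7, 22.7 and 23.1 FPKM in siPSCA (-0.32 ± 0.06). Values per gene do not separate its spliced from its unspliced form. ATF6 was at 9.16, 8.73 and 10.4 FPKM in NC and 7.09, 7.00 and 7.96 FPKM in siPSCA (-0.32 ± 0.08), and it did not pass without siPSCA 1 (-0.30) or siPSCA 2 (-0.29). XBP1 and ATF6 were -0.09 and -0.07 after trend removal and did not pass.

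ATF6B, the paralog of ATF6, had the largest rise of the set on the log2(FPKM + 1) scale. In the ratio of mean FPKM, siPSCA to NC, it stood at 1.74 and TXNDC5 at 1.86, and after trend removal TXNDC5 also had the higher value, without passing. ATF6B was at 8.94, 8.80 and 6.11 FPKM in NC and 13.4, 13.9 and 14.2 FPKM in siPSCA, with NC 3 the lowest library (0.75 ± 0.13, SE, 0.59 without NC 3 and 0.41 after trend removal). Thus ATF6 and ATF6B had opposite signs in the FPKM values, and after trend removal only ATF6B passed. The proteases that cleave both proteins did not pass the threshold. MBTPS1 was at 22.3, 23.3 and 25.3 FPKM in NC and 23.5, 23.3 and 23.4 FPKM in siPSCA (-0.01 ± 0.06), and MBTPS2 at 3.65, 3.98 and 4.14 FPKM in NC and 3.36, 3.26 and 3.70 FPKM in siPSCA (-0.15 ± 0.07). MBTPS2, with a GC content of 35.9%, was 0.20 and past the threshold after trend removal. WFS1, an ER membrane protein that restrains ATF6 signalling, was at 9.54 to 10.7 FPKM in NC and 10.8 to 11.9 FPKM in siPSCA (0.14 ± 0.06, not past the threshold), and after trend removal it was -0.28 and passed.

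HERPUD1, an ER membrane protein that organises the ubiquitin ligase complex of ER-associated degradation, had the largest fall of the 10 degradation genes tested. It lies on chromosome 16 (16:56932048-56944863 in GRCh38, plus strand), and its level was 22.3, 21.6 and 23.3 FPKM in NC and 6.63, 6.43 and 6.22 FPKM in siPSCA. NC was 3.48-fold higher, and the log2 fold change was -1.65 ± 0.05 (SE), against -1.67 after trend removal and -1.63 without NC 3. EDEM1, a mannosidase-like protein that marks glycoproteins for degradation, was at 15.7, 16.2 and 14.2 FPKM in NC and 6.51, 6.33 and 7.11 FPKM in siPSCA (-1.10 ± 0.07). SEL1L, the scaffold of the ubiquitin ligase, was at 21.5, 20.6 and 23.9 FPKM in NC and 10.2, 9.84 and 10.4 FPKM in siPSCA (-1.04 ± 0.07). The groups of EDEM1 and SEL1L were separate, and the differences were -1.01 and -0.71 after trend removal.

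SYVN1 (HRD1), the ligase that SEL1L holds, did not pass. It was at 14.8, 14.6 and 10.7 FPKM in NC and 11.4, 12.7 and 10.8 FPKM in siPSCA, and NC 3 lay among the siPSCA libraries (-0.17 ± 0.13, SE). It passed without NC 3 (-0.32) and after trend removal (-0.46). The 3 EDEM genes did not share a direction. EDEM3 was at 7.76, 7.17 and 8.34 FPKM in NC and 4.46, 4.75 and 5.06 FPKM in siPSCA (-0.60 ± 0.07), whereas EDEM2, which makes the first mannose cut, was at 11.0, 12.4 and 9.83 FPKM in NC and 14.6, 14.8 and 15.6 FPKM in siPSCA (0.41 ± 0.09). After trend removal EDEM3 was -0.29 and EDEM2 0.22, both still past the threshold, but EDEM2 did not pass when NC 3 was left out as well (0.18).

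DERL1 and DERL2, membrane proteins of the export channel, fell by under 0.5 on the log2 scale. DERL2 was at 8.93, 9.32 and 8.04 FPKM in NC and 6.78, 6.96 and 6.89 FPKM in siPSCA (-0.31 ± 0.06, SE, and -0.02 after trend removal). DERL1 was at 14.5, 15.3 and 16.8 FPKM in NC and 13.2, 12.8 and 14.0 FPKM in siPSCA (-0.21 ± 0.07, and -0.03 after trend removal). DERL1 did not pass without NC 2 (-0.22), siPSCA 1 (-0.20), siPSCA 2 (-0.18) or siPSCA 3 (-0.24). OS9, the lectin that presents trimmed glycoproteins to SEL1L, was at 25.9, 27.1 and 33.8 FPKM in NC and 26.0, 23.6 and 22.7 FPKM in siPSCA, and its groups overlapped (-0.25 ± 0.11, not past the threshold, and -0.37 and past it after trend removal). NC 3 was its highest library, and without NC 3 it was -0.13 and did not pass. SELENOS was at 11.8 to 12.8 FPKM in NC and 11.4 to 11.7 FPKM in siPSCA (-0.08 ± 0.05) and did not pass.

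The outputs of the 3 sensors were set side by side. HSPA5, HSP90B1, HERPUD1, MANF, PDIA4, HYOU1, CALR, CRELD2 and SDF2L1 were listed as ATF6-responsive. Of these, 7 of 9 fell and SDF2L1 rose, with a median of -0.75. After trend removal all 9 fell and the median was -0.87. XBP1, PDIA6, CANX and ERO1B also held the ER stress element but were not listed. All of them fell, and after trend removal XBP1 (-0.09) did not pass while PDIA6, CANX and ERO1B did. Of the 5 tested genes listed as XBP1-responsive, EDEM1, DNAJB9, DNAJC3, DNAJB11 and DERL2, all fell, with a median of -0.99. After trend removal 4 fell and the median was -0.73. SYVN1 and DERL1 were on neither list, and these counts depend on which genes were listed. Outputs of PERK and ATF4 lie outside the set, and 11 were tested, of which 3 fell (27.3%) and 3 rose, near the 24.2% and 26.6% of all genes, with a median of -0.02. After trend removal 7 fell and 2 rose, where 18.4% of all genes fell and 21.7% rose, and their median was -0.33. The lists were written with these data known, share libraries and hold few genes, so the differences between them were not tested.

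ATF4 itself was at 112, 114 and 113 FPKM in NC and 118, 109 and 108 FPKM in siPSCA (log2 fold change -0.02, limma adjusted p = 0.766), and after trend removal it was -0.30 and passed. DDIT3 (CHOP), the transcription factor tied to cell death in the PERK arm, was at 8.79, 9.09 and 9.46 FPKM in NC and 5.83, 3.92 and 4.79 FPKM in siPSCA (-0.80, limma adjusted p = 0.00341). ASNS, asparagine synthetase, fell as well (-0.69, adjusted p = 0.00292), and so did CEBPG (-0.45, adjusted p = 0.00141). SESN2 rose (0.74, adjusted p = 0.00376), as did ATF3 (0.52, adjusted p = 0.00377) and PPP1R15A (0.29, adjusted p = 0.026). After trend removal DDIT3, ASNS, CEBPG, SESN2 and ATF3 kept their directions and passed, and PPP1R15A was -0.08 and did not. DDIT4 (-0.56), CHAC1 (-0.03) and TRIB3 (0.15) did not pass before trend removal. After it they were -0.90, -0.56 and -0.33 and passed. Without NC 3, DDIT4 was -0.88 and passed. CEBPB (0.79, and 0.09 after trend removal) passed in neither.

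**Figure D4:**
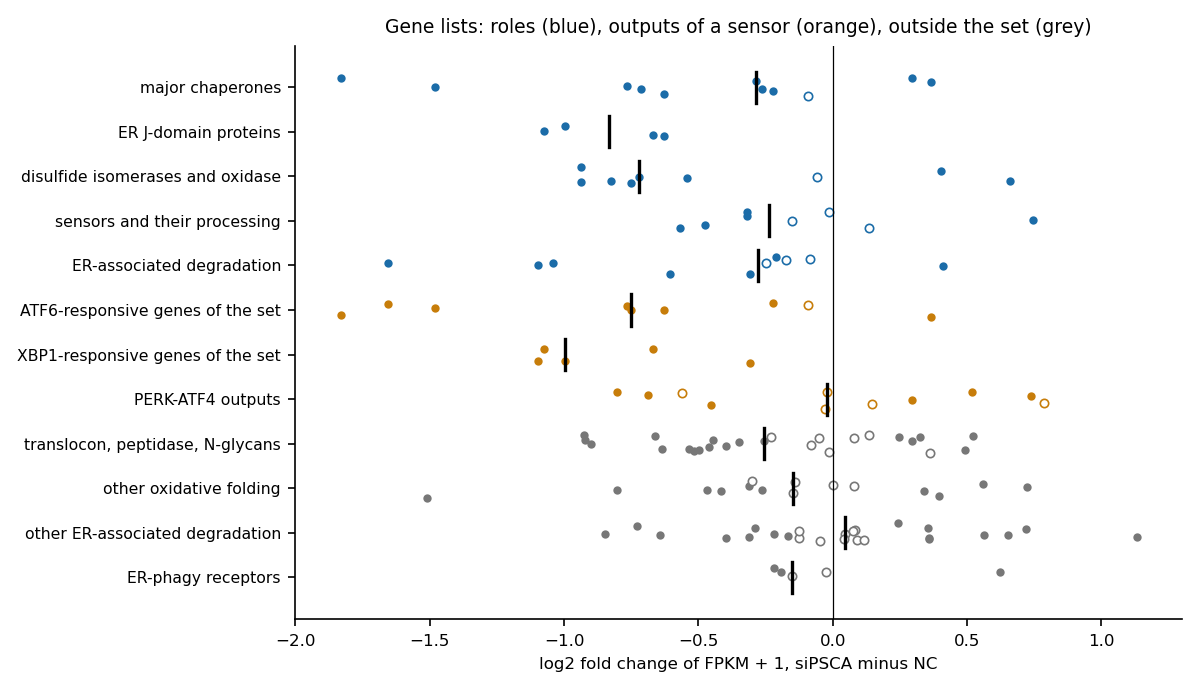
The log2 fold change of FPKM + 1 (siPSCA minus NC) of each tested gene in the 5 role lists (blue), the 3 lists of outputs of a sensor (orange) and the 4 lists outside the set (grey). Filled points passed the adjusted threshold and black bars are medians, which run from -0.99 for the XBP1-responsive genes to 0.04 for the other ER-associated degradation genes.

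Other genes of the ER were taken from lists that were written for the comparison. Of all genes tested, 24.2% fell and 26.6% rose, and after trend removal 18.4% fell and 21.7% rose. Of 15 further genes of oxidative folding, 6 fell and 4 rose, with a median of -0.15, and after trend removal 5 fell and 4 rose, with a median of 0.02. ERO1A, the main ER oxidase, was at 43.3, 43.3 and 51.6 FPKM in NC and 15.1, 15.7 and 15.6 FPKM in siPSCA (-1.51 ± 0.08, SE, limma adjusted p = 0.000233, and -1.20 after trend removal). P4HB, the classical protein disulfide isomerase, was at 299.5, 303 and 314 FPKM in NC and 174, 173 and 177 FPKM in siPSCA (-0.80 ± 0.04, adjusted p = 0.00025, and -1.18 after trend removal). SELENOM (0.72, adjusted p = 0.00862) and TXNDC12 (0.56, adjusted p = 0.0185) had the largest rises of that list before trend removal. After it SELENOM was 0.26 and TXNDC12 0.56, and TMX4 (0.56) and TMX2 (0.41) stood above SELENOM.

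Of 25 genes of the translocon, the signal peptidase and N-glycan transfer, 13 fell (52%) and 5 rose, with a median of -0.26. Over all genes the shares were 24.2% and 26.6%. SEC61G, a subunit of the protein-conducting channel, and TRAM1, its partner, fell most (-0.92 each, limma adjusted p = 0.00187 and 0.00113), and SPCS1 (0.52, adjusted p = 0.0017) and OST4 (0.49, adjusted p = 0.0124) rose most. After trend removal 10 genes of the list fell and 2 rose, with a median of -0.11, where 18.4% of all genes fell and 21.7% rose. SEC61G was then -0.59, TRAM1 -0.62 and SPCS1 0.61, and OST4 (0.32) no longer passed. Of 25 further genes of ER-associated degradation, 8 fell (32%) and 8 rose, with a median of 0.04. After trend removal 5 fell and 10 rose, with a median of 0.14. NGLY1, which removes N-glycans in the cytosol (-0.85, adjusted p = 0.000498), and the lectin ERLEC1 (-0.73, adjusted p = 0.00077) fell most, and were -0.51 and -0.48 after trend removal. TMUB1 rose most, from 15.1, 14.9 and 7.99 FPKM in NC to 30.1, 26.9 and 27.0 FPKM in siPSCA (1.13, adjusted p = 0.00885), with NC 3 far below the other NC libraries, and it was 0.41 after trend removal. UBE2J2 rose by 0.72 (adjusted p = 0.00196) and was 0.31 after trend removal.

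The presence of an ER stress element was set against the changes within the set. Of the 11 genes with either element, 9 fell, SDF2L1 rose and CRELD2 did not pass, with a median of -0.72. Of the 29 tested genes with a promoter window and neither ER stress element, 17 fell, 5 rose and 7 did not pass, with a median of -0.31. DNAJC10, TXNDC5 and TXNDC11, which held the core of the UPR element, are among these. After trend removal 10 of the 11 genes fell and the median was -0.63, and 16 of the 29 fell with a median of -0.29. Over all genes tested 24.2% fell and 26.6% rose, and after trend removal 18.4% fell and 21.7% rose. Outside the set, 18 tested genes held either element, of which 8 fell and 4 rose, with a median of 0.04. After trend removal 8 of these fell and 1 rose, with a median of -0.23. In the set, CRELD2 (-0.09) and CALR (-0.22) held the ER stress element. EDEM1, SEL1L and DNAJB9 had no exact match of either element in these windows and fell by over 1 on the log2 scale. Because the genes of the set were chosen with their changes known, the differences between these medians were not tested.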

How the data were processed

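The authors deposited 1 table of FPKM values per gene for 6 libraries, with gene length in bases. The libraries were made with the NEBNext Ultra RNA kit and sequenced as paired ends; the submitters' processing notes name GRCh38, and the aligner, counting program and strand setting are not given in the sources used here. All 58735 genes lay at their GENCODE 29 positions. FPKM times gene length was a whole multiple of 1 step in each library for 100% of values (tolerance 0.05 reads), so whole reads were recovered, 16099716 to 17302219 per library; intervals and floors would cover counting error only.

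Libraries were grouped by their labels. Members and lists were chosen with earlier results of these data known. Log2(FPKM + 1) was fitted with limma 3.58.1 (lmFit, eBayes with trend, R 4.3.3) with the group as the only term, for the 13796 genes whose mean FPKM reached 1, with Benjamini-Hochberg adjustment over all of them at a threshold of 0.05. The fit was tested on simulated data. The GC and length trend was a spline on the GC content of the longest transcript (5 degrees of freedom) and on log gene length (3 degrees of freedom), removed from each library. An exact permutation test of 3 against 3 libraries cannot fall below p = 0.1 and is not quoted. Alternatives were a pseudocount of 0.1, no FPKM minimum, TPM, limma-voom on the recovered reads, the trend removal, a replicate block and leaving out each library. Trend removal without NC 3 was added after the data were seen. Named genes were all members, PSCA, CD44, EPCAM, ERO1A, P4HB, ATF4 and DDIT3, and in each list of ER or PERK genes outside the set the 2 largest rises and 2 largest falls past the threshold. PPP1R15A, CEBPG, DDIT4, CHAC1, TRIB3, CEBPB, TMX2, TMX4, ATL3, CALCOCO1 and the other colorectal markers were named in addition, after their values were seen. Promoter sequences came from RefSeq (GRCh38.p14) and were searched with Python 3.11.15, pandas 2.3.3 and numpy 2.4.6. Protein sequences and peptide motifs were not analysed here.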

Additional observations from a re-analysis of the deposited data

How the results depend on the processing

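Of the 28 falls and 6 rises in the set, 20 falls and 2 rises passed under all 13 alternatives. The same share over all genes was not computed. With no FPKM minimum, 3 genes of the set rose. Leaving out 1 library at a time gave 3 to 5 rises in the set and 2299 to 4014 rises over all genes. The trend on GC content and length turned SDF2L1 (-0.28), SIL1 (-0.079), WFS1 (-0.28) and MBTPS2 (0.20), and with NC 3 left out as well the values were -0.215 (SDF2L1), -0.012 (SIL1), -0.22 (WFS1) and 0.20 (MBTPS2). Leaving out 1 library, MBTPS1 ran from -0.051 to 0.035 (without NC 3), TXNDC11 from -0.117 to 6.242e-05 (without siPSCA 2) and ATF4 from -0.063 to 0.0058 (without siPSCA 3), in no case past the threshold. The causes were not tested. Replicate numbers are shared between the groups. In their deviations from the group means, same-numbered libraries correlated by 0.096, 0.013 and 0.134 and different-numbered libraries by -0.131 to 0.042. Whether the numbers mark pairs cannot be told from these values, and the main fit did not take them as pairs. With a replicate block, 27 genes of the set fell and 6 rose, over all genes 3153 fell and 3572 rose, and CALR (adjusted p = 0.0927) lost its call. At 16099716 to 17302219 reads per library, DERL3 and PSCA lay too low for a comparison.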

Other observations

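Outside the set, 18 tested genes held an ER stress element or an ER stress element II in a promoter window. Of these 8 fell and 4 rose, with a median log2 fold change of 0.04, where 24.2% of all genes fell and 26.6% rose. After removal of the GC and length trend 8 fell and 1 rose, with a median of -0.23, where 18.4% of all genes fell and 21.7% rose. SERP1 and EIF2A, on opposite strands, share the same element, as do GYS1 and RUVBL2, and ALG12 shares that of CRELD2. FICD, the enzyme that AMPylates BiP and so keeps it inactive, was lower in siPSCA, with a mean of 3.47 ± 0.132 FPKM in NC and 2.19 ± 0.256 FPKM in siPSCA (SD, n = 3, log2 fold change -0.49, limma adjusted p = 0.00457). It was -0.58 after trend removal. SERP1, which stabilises membrane proteins at the translocon, was at 28.7 ± 0.166 FPKM in NC and 24.4 ± 0.761 FPKM in siPSCA (SD, n = 3, -0.23, adjusted p = 0.00833), and at -0.06 it did not pass after trend removal. EIF2A fell from 39.5 ± 1.46 FPKM in NC to 25.2 ± 0.894 FPKM in siPSCA (SD, n = 3, -0.63, adjusted p = 0.000753, and -0.36 after trend removal). RAD9A rose (0.70, adjusted p = 0.0382), as did SHCBP1 (0.50, adjusted p = 0.0061). RAD9A was 0.44 without NC 3, its lowest library, and 0.23 after trend removal, when it did not pass, while SHCBP1 was 0.67. These genes were picked after their values were seen, from 26 genes outside the set with an element, and no test was made over them.

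Of 5 tested receptors of ER-phagy, which deliver ER to the lysosome, TEX264 rose from 2.96, 3.22 and 2.96 FPKM in NC to 5.58, 5.73 and 4.44 FPKM in siPSCA (0.62, limma adjusted p = 0.00375, and 0.40 after trend removal). RETREG1 (-0.22, adjusted p = 0.029) and RTN3 (-0.19, adjusted p = 0.0352) fell and did not pass after trend removal. ATL3 (-0.02) and CALCOCO1 (-0.15) did not pass before trend removal, and after it they were 0.26 and -0.24 and passed. Over all genes tested 24.2% fell and 26.6% rose, and after trend removal 18.4% fell and 21.7% rose.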
